A study of Bos taurus with 40 samples.

Results

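Claudins, cadherins and protocadherins are transmembrane proteins of cell contacts. All genes whose symbol starts with CLDN, CDH or PCDH followed by a digit, or with PCDH followed by a letter, were taken, leaving out the CLDND and CDHR genes. This gave 49 genes, 15 claudins, 20 cadherins and 14 protocadherins, of the 13570 genes in the count tables. Of the 49, 22 had reads in all 40 libraries, 27 in some of them, and 0 were without a read. All 49 were among the 13148 genes tested.

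Claudins span the membrane in tight junctions, where they seal the gap between neighbouring cells or form pores for small ions and water. Classical cadherins bind the same cadherin on the next cell in a calcium-dependent way and are tied to actin through the catenins, and the set of cadherins a cell makes helps to decide which cells it adheres to. Protocadherins lack the catenin-binding tail, and the clustered PCDHA, PCDHB and PCDHG genes are best known for giving neurons individual surface identities.

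The tissues were the pituitary gland, the longissimus dorsi muscle, the liver and the abdominal fat of Korean cattle. Each of 5 cows (females) and 5 bulls (males) gave 1 library per tissue. The animals carried no experimental treatment and were slaughtered at over 22 months of age. Each library is a bulk tissue sample, so fewer cells of a type and less RNA per cell cannot be told apart. Levels are CPM, read counts scaled to a common library size with TMM factors over the 40 libraries, and are not corrected for gene length, so levels are compared between tissues and animals and not between genes.

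Reads on genes ranged from 5173092 to 19165864 per library, with a median of 10005607. All measured markers of each tissue were highest in that tissue, 8 of 8 for pituitary gland, 6 of 6 for muscle, 5 of 5 for fat and 5 of 5 for liver. A few libraries stood apart. The liver library labelled bull 3 had 1401 CPM of XIST, an RNA of the inactive X chromosome, and 0 reads on DDX3Y, USP9Y and ZFY, genes of the Y chromosome, whereas XIST was at 0.0841 to 1.39 CPM in the other bull libraries. Its correlation with the liver of cow 4 was 0.993, against 0.939 to 0.987 for other pairs of liver libraries. Their counts differed by a chi-square of 15.8 per degree of freedom, the lowest of all pairs of libraries within a tissue, the next being 24.1 over all tissues and 45.8 in liver. They were kept as 2 libraries, and whether they came from 1 animal was not tested. XIST was at 681 to 2179 CPM in the livers of the cows. By these genes the library labelled bull 3 was thus like a cow liver, against its label. It was kept as labelled and counts as a bull below unless it is said to be left out. The fat library of bull 5 had 1.78 CPM of USP9Y, against 28.1 to 34.1 in the fat of bulls 1 to 4, and 7.20% of its reads on ribosomal protein genes, against 1.01% to 3.94% in the other fat libraries. The fat of bull 5 and the fat of cow 2 also stood apart in CLDN5, CDH5 and PCDHGC3. Both lay below the other 8 fat libraries in CDH6, CLDN1, PCDH17, PCDHB11 and PCDHGA2 as well. Where leaving out these libraries ended or added a call among the differences given below, or moved one by over 1.5 times, the value without them is given too.

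Across tissues, the pituitary gland had the highest level of more of these genes than any other tissue. A gene was called highest in a tissue when its level was above that in each of the other 3 tissues by a log2 difference of at least 1 and with an adjusted p under 0.05 each time (edgeR's quasi-likelihood test on all 40 libraries, with tissue and sex in the model and Benjamini-Hochberg adjustment over all genes tested). By this rule 22 of the 49 genes were highest in pituitary gland, where 12.0% of all genes tested were, and 5 were highest in liver, against 10.1% of all genes. Another 5 were highest in fat, against 6.93%, and 1 was highest in muscle, against 8.13%. The 22 comprised 5 of the 15 claudins, 8 of the 20 cadherins and 9 of the 14 protocadherins. The median over the 49 genes of the smallest log2 difference between pituitary gland and another tissue was 0.30, against -0.78 over all genes tested. With CDH12 set at the bound its reads allow and CLDN18 left out for want of reads, the median over the members was 0.37.

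Of the remaining 16 genes, 4 (CDH1, CDH2, CLDN1 and CLDN4) were higher in both liver and pituitary gland than in either fat or muscle. This pattern held for 10 of the 49 genes in all, against 4.08% of all genes. CDH5 and PCDH12 were lowest in pituitary gland, a pattern of 4 of the 49 and of 5.92% of all genes. CDH23 and PCDHGC3 were lowest in liver, a pattern of 10 of the 49 and of 9.26% of all genes. CDH22 was higher in muscle and pituitary gland than in liver and fat, a pattern of 2 of the 49 and of 3.14% of all genes. CLDN19 was higher in fat and muscle than in the others, a pattern of 3 of the 49 and of 5.09% of all genes. Within animals the order of CDH22 held in 6 of 10 and that of CLDN19, with 79 reads over 18 libraries, in 4 of 10. CDH11, CDH16, CDH19, CLDN12, CLDN18 and PCDH7 met none of these rules. The rules other than the highest tissue were added after the values had been seen. The tissue comparisons share libraries, so they are not independent of each other.

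The breadth of expression differed as well. A median of at least 1 CPM was reached by 37 of the 49 genes in pituitary gland, 28 in fat, 26 in muscle and 23 in liver. Over all genes tested the shares were 78.6%, 74.9%, 74.0% and 74.5%. Among the claudins, 9 of 15 reached it in pituitary gland and 8 in liver, but 5 in fat and 4 in muscle. Among the protocadherins, 13 of 14 did so in pituitary gland, 11 in fat, 11 in muscle and 7 in liver. In all 4 tissues 17 of the 49 genes passed this level, and 7 passed it in none: CDH12, CDH16, CDH19, CLDN16, CLDN18, CLDN19 and PCDH8.

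**Figure D1:**
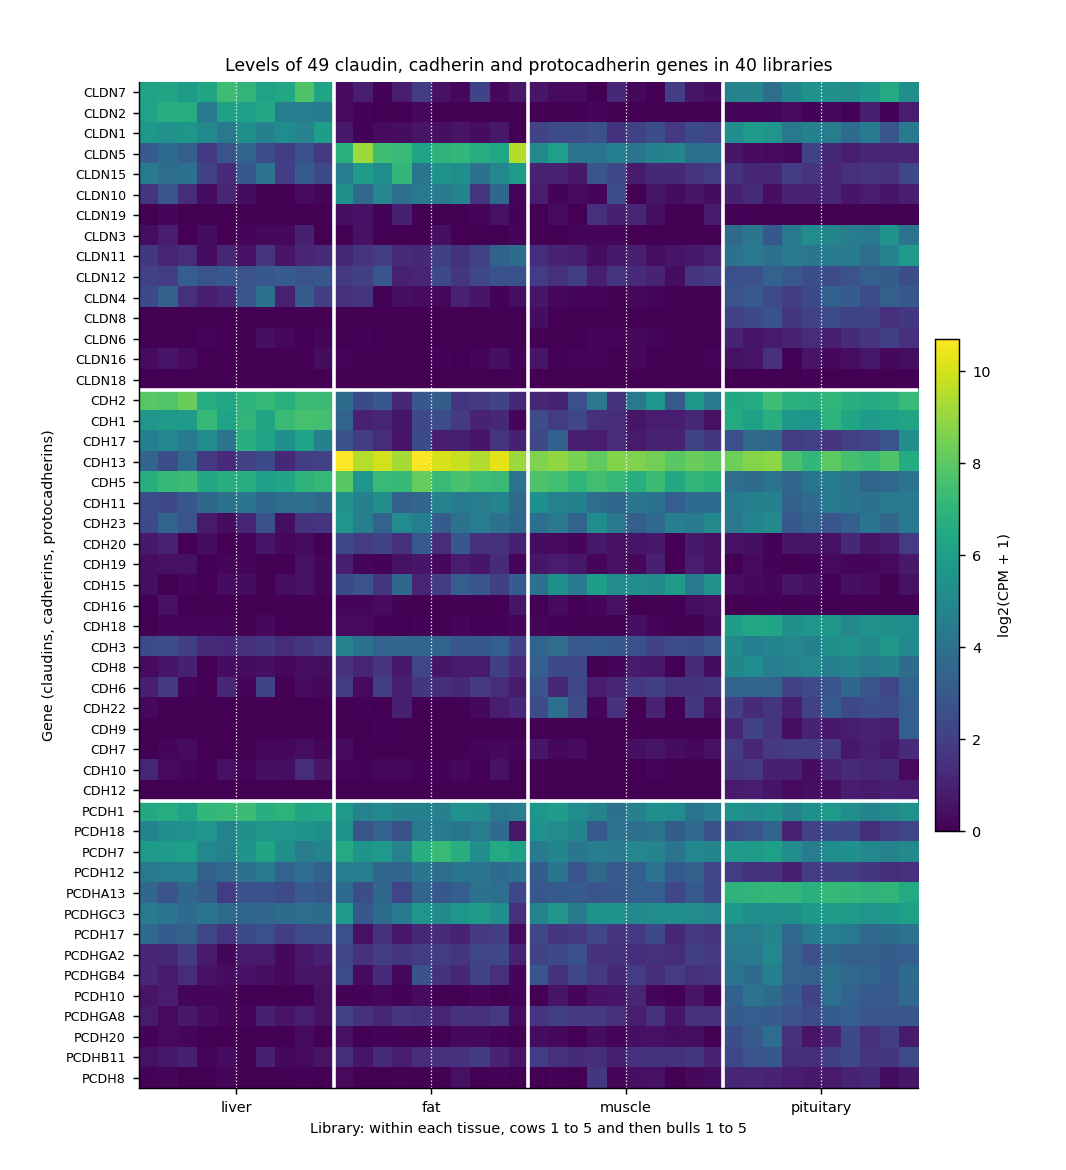
Levels of the 49 claudin, cadherin and protocadherin genes (lines) in the 40 libraries (columns), as log2(CPM + 1). Within each tissue the 5 cows come first and the 5 bulls second, genes are ordered within each family by the tissue of their highest mean, and 22 of the 49 were called highest in pituitary gland.

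The pituitary genes included many type II cadherins, which are best known from the nervous system, where they sort groups of neurons. Of the 12 type II cadherins measured, 7 were highest in pituitary gland: CDH6, CDH7, CDH8, CDH9, CDH10, CDH12 and CDH18. CDH18 had 30.0 to 85.2 CPM in the 10 pituitary libraries, with a median of 44.4, and at most 0.179 CPM in liver, 0.257 in fat and 0.347 in muscle. The pituitary libraries were thus all far above every other library. Its pituitary level was 8.81 log2 units above that in fat, the next tissue (SE 0.44, 450-fold, adjusted p = 1.63e-22 in edgeR's quasi-likelihood test). Its mean level in the other tissues was 0.134% to 0.188% of its pituitary level. For PRL, the prolactin gene, which pituitary lactotrophs express, the corresponding share was 0.0408% to 0.0601%, and for POMC, the hormone precursor of corticotrophs, it was 0.0620% to 0.118%, so reads of pituitary genes occurred at a trace level in the other tissues. Whether such traces account for the CDH18 reads outside the pituitary gland was not tested.

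CDH8 ranged from 12.9 to 35.9 CPM in pituitary gland, with a median of 25.4. Its highest values elsewhere were 0.897 CPM in liver, 3.70 in fat and 8.28 in muscle. The groups did not overlap, and the log2 difference between pituitary gland and muscle was 3.84 (SE 0.45, 14.3-fold, adjusted p = 4.13e-09 in edgeR). CDH6, also known as K-cadherin, was at 3.27 to 11.1 CPM in pituitary gland, a log2 difference of 1.58 to the next tissue (SE 0.47), and CDH7 at 0.605 to 2.80 CPM, 6.39-fold above it.

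CDH12 and CDH9 were nearly or wholly without reads outside the pituitary gland, and CDH10 was not. CDH12 had 99 reads over the 10 pituitary libraries, 0.234 to 0.881 CPM, and 0 reads in the 30 others. Against a floor of 3 reads over the 10 libraries of a tissue, its level was at least 14.6-fold higher in pituitary gland. CDH9 had 312 pituitary reads, 0 in liver and muscle and 2 in fat, so that its level was at least 48.7-fold above liver and muscle. CDH9 varied widely in the pituitary gland, from 0.312 CPM in cow 4 to 8.61 in bull 5, with a median of 1.05. CDH10 was at 0.196 to 2.41 CPM in pituitary gland and overlapped with liver. Its log2 difference to liver was 1.22 (SE 0.48, adjusted p = 0.0211 in edgeR), the order of the tissues held in 7 of the 10 animals, and the call was lost without cow 2 or without bull 2.

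CDH3, P-cadherin, was the 1 of the 4 classical type I cadherins highest in pituitary gland. It lay at 23.6 to 50.5 CPM there (median 32.7), at 1.37 to 4.90 in liver (2.29), at 3.48 to 26.9 in fat (9.42) and at 3.46 to 13.1 in muscle (6.53). Only fat overlapped with pituitary gland, through its highest library, and within every animal the pituitary level was the highest. Pituitary gland was 1.80 log2 units above fat (SE 0.25, 3.47-fold, adjusted p = 7.29e-08 in edgeR).

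Among the 6 clustered protocadherins, 5 were highest in pituitary gland and all 6 had their highest mean there. PCDHA13 was at 91.5 to 143 CPM in the pituitary libraries, with a median of 128. It reached 15.2 CPM in the highest library of fat, 11.01 in liver and 8.29 in muscle, so that no pituitary library came near those of another tissue. The difference to fat was 3.79 log2 units (SE 0.22, 13.8-fold, adjusted p = 1.57e-17 in edgeR). PCDHGA2 was at 5.06 to 31.02 CPM in pituitary gland, with a median of 8.92, and at medians of 0.715 in liver, 2.66 in fat and 2.23 in muscle. PCDHGB4 (7.58 to 23.6 CPM) and PCDHGA8 (4.58 to 8.48) did not overlap with the other tissues and were 4.81-fold and 3.69-fold above the next one. PCDHB11 was 2.01-fold above the next tissue (adjusted p = 0.00922 in edgeR) and was not called with the animal as a block, without cow 2 or without cow 3. The genes of each cluster share sequence in their constant or closely related exons, so the reads counted for 1 of them may come in part from another.

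PCDHGC3, the remaining clustered gene, was widely expressed. Its median was 50.6 CPM in pituitary gland, 35.8 in fat, 35.6 in muscle and 12.8 in liver. Liver was the lowest, by a log2 difference of 1.84 to pituitary gland, and the differences of pituitary gland to fat (adjusted p = 0.0718) and to muscle (0.158) did not pass in edgeR. In fat it was at 1.78 CPM in bull 5 and 6.82 in cow 2, and at 12.9 to 60.0 in the other 8 libraries. Without these 2 libraries pituitary gland was 0.55 log2 units above muscle (SE 0.19, adjusted p = 0.0106), and its difference to fat still did not pass (0.38, SE 0.20, adjusted p = 0.0967).

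Of the 8 non-clustered protocadherins, 4 were highest in pituitary gland, PCDH8, PCDH10, PCDH17 and PCDH20. PCDH10 and PCDH17 are protocadherins of the delta group that are prominent in brain. PCDH17 was at 11.7 to 28.2 CPM (median 19.9) in pituitary gland and at medians of 4.49 in liver, 2.42 in muscle and 1.39 in fat. It was 3.37-fold above liver (log2 1.75, SE 0.32, adjusted p = 1.21e-05 in edgeR), with 1 value of liver, 12.2 CPM, within the pituitary range. PCDH10 was at 3.56 to 15.7 CPM in pituitary gland, 27.2-fold above the next tissue, and PCDH20 at 0.479 to 13.4 CPM, 15.4-fold above it. PCDH8 was called with an adjusted p of 0.0459 and lost the call with DESeq2 and in 7 of the 10 fits that left out an animal.

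Of the claudins, CLDN3, CLDN6, CLDN8, CLDN11 and CLDN16 were highest in pituitary gland. CLDN3, a sealing claudin of epithelia and a receptor of Clostridium perfringens enterotoxin, had 6.67 to 44.7 CPM there (median 20.5), and at most 0.936 in liver, 0.455 in fat and 0.148 in muscle. It was 67.8-fold above liver (log2 6.08, SE 0.54, adjusted p = 3.32e-13 in edgeR) and overlapped with no other tissue. CLDN11, the claudin of myelin and of the Sertoli cell barrier, was at 13.5 to 53.5 CPM (median 19.2), against 12.6 in the highest library of fat. The difference to fat was 2.60 log2 units (SE 0.34, 6.04-fold, adjusted p = 4.34e-08).

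The other 3 were rarer. CLDN8 had 523 reads in pituitary gland (1.72 to 5.51 CPM), 2 in muscle and 0 in liver and fat, at least 98.6-fold above liver and fat. CLDN6, best known from embryonic epithelia, was at 0.530 to 3.0 CPM, 19.5-fold above the next tissue. CLDN16, known for magnesium reabsorption in the kidney, was 3.28-fold above the next tissue with an adjusted p of 0.0193 in edgeR, with the order holding in 6 of the 10 animals, and was not called without cow 3 or without bull 3.

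Of the 22 pituitary genes, 18 had their highest level in the pituitary gland in all 10 animals, and for 14 of them the pituitary libraries overlapped with no other library. No other member met either condition. Over all genes tested 10.5% met the first and 7.23% the second, and among the 1573 genes called highest in pituitary gland the shares were 77.6% and 58.8%, against 81.8% and 63.6% of the 22. Markers of neurons and glia were mixed. Of the 9 measured, 6 (GFAP, NEFL, RBFOX3, SNAP25, SYP and TUBB3) were highest in pituitary gland and 2 (SLC1A3 and VIM) in fat. Of 9 epithelial markers, 5 were highest in pituitary gland and 2 (ESRP2 and KRT18) in liver. The summed neuron and glia list was at 729 to 1192 CPM in pituitary gland, 70.7 to 186 in liver, 475 to 1799 in muscle and 3397 to 16164 in fat, the last made up mostly of VIM, whose mean in fat was 8009 CPM. The part of these cells in the results was not tested.

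**Figure D2:**
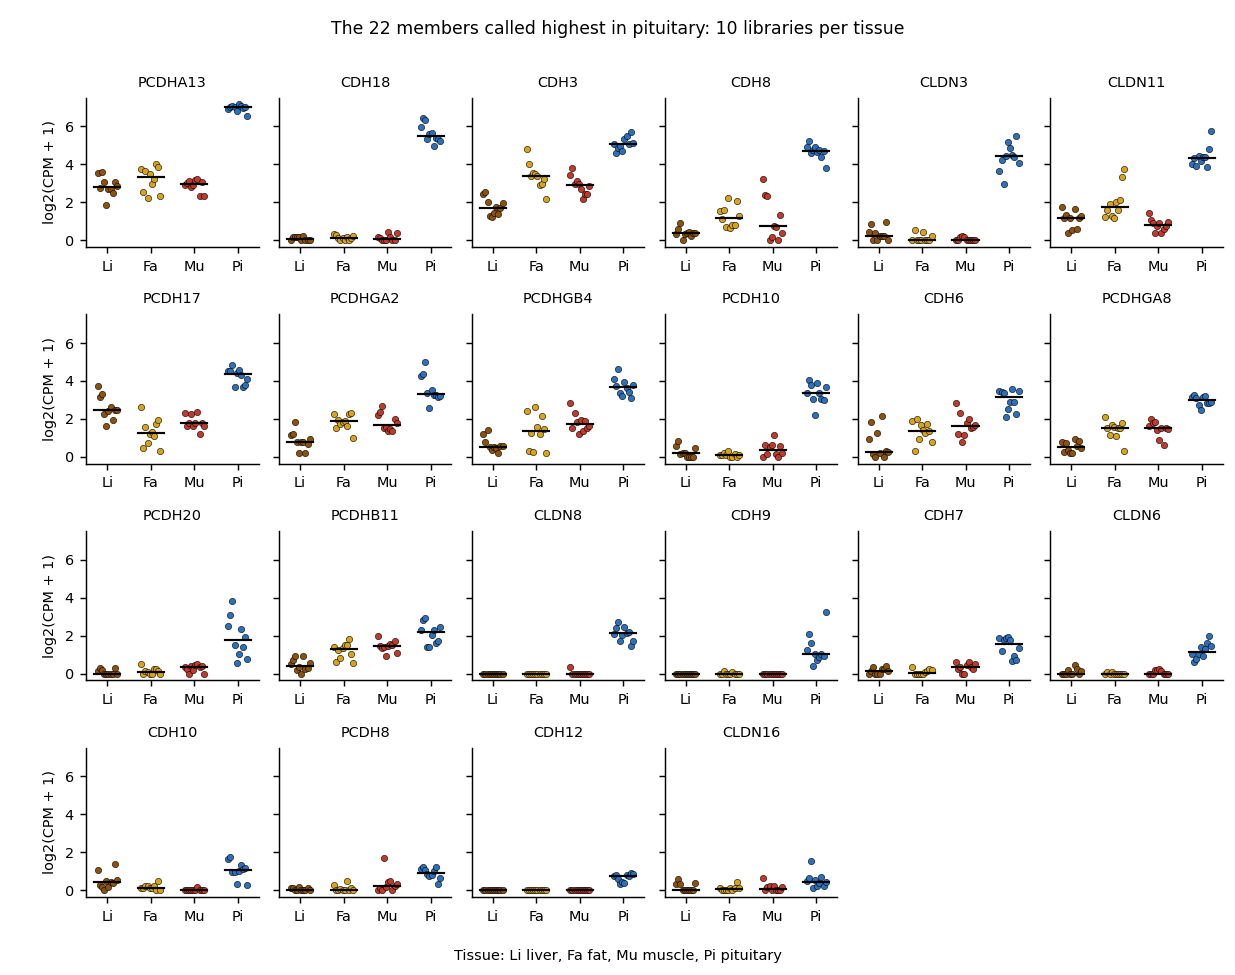
The 22 genes called highest in pituitary gland, with 1 dot per library on a log2(CPM + 1) axis, colored by tissue, and bars at the medians of 10 libraries. CDH18, PCDHA13 and CLDN3 show pituitary libraries that are clear of all others, while CDH10, CLDN16 and PCDH8 overlap.

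CDH1, CDH2, CLDN1 and CLDN4 were high in both liver and pituitary gland. CDH1, E-cadherin, which joins epithelial cells, was at 47.6 to 192 CPM in liver (median 103) and 47.7 to 121 in pituitary gland (71.2). It was at 0.155 to 9.58 CPM in fat (1.25) and 0.415 to 4.83 in muscle (1.45). No fat or muscle library reached a liver or pituitary one, and the log2 differences ranged from 4.88 (pituitary gland over fat, SE 0.41) to 5.95 (liver over muscle, SE 0.44). Liver and pituitary gland differed by 0.57 (SE 0.39, adjusted p = 0.208 in edgeR), with an interval of -0.20 to 1.33.

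CDH2, N-cadherin, which hepatocytes express alongside E-cadherin, showed the same order. It was at 83.5 to 304 CPM in liver (median 146), 88.6 to 169 in pituitary gland (106), 1.04 to 50.9 in muscle (12.3) and 1.28 to 12.7 in fat (3.99). Muscle spanned a wide range and stayed below the lowest liver library. Liver was 5.05 log2 units above fat (SE 0.46) and 3.32 above muscle (SE 0.45), and pituitary gland 4.53 and 2.81 above them (SE 0.46 and 0.45). Liver and pituitary gland differed by 0.52 (SE 0.45, adjusted p = 0.317).

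CLDN1, a sealing claudin without which the epidermal barrier fails, was at medians of 37.3 CPM in liver, 21.3 in pituitary gland, 4.02 in muscle and 0.326 in fat. Its muscle level was itself 3.40 log2 units above fat (SE 0.37, adjusted p = 7.87e-11 in edgeR). CLDN4, a second enterotoxin receptor, had medians of 6.23 CPM in pituitary gland, 3.60 in liver, 0.329 in fat and 0.116 in muscle. Fat, at up to 2.01 CPM, overlapped with liver, which went down to 0.842.

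Liver had 5 genes of its own. CLDN2, which forms pores for cations and water, was at 20.6 to 103 CPM in liver (median 66.1), while its highest values were 0.840 CPM in pituitary gland, 0.206 in fat and 0.148 in muscle. Liver was 7.72 log2 units above pituitary gland (SE 0.44, 211-fold, adjusted p = 3.28e-18 in edgeR). Within liver the libraries fell apart. Cows 1, 2, 3 and 5 had 70.4, 103, 99.1 and 68.1 CPM and bulls 1 and 2 had 64.2 and 85.9 CPM, whereas cow 4 and bulls 3, 4 and 5 had 21.1, 21.3, 21.8 and 20.6. This spread did not follow the labelled sex, and it was singled out after the values had been seen. The low livers of cow 4 and bull 3 are the pair with the closest counts described above, and the label of the latter is in doubt.

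CLDN7, a claudin of the lateral membrane of many epithelia, was at 56.5 to 216 CPM in liver (80.3) and 13.7 to 92.7 in pituitary gland (38.1), and at most 3.48 in fat and 2.91 in muscle. Liver was 1.41 log2 units above pituitary gland (SE 0.40, 2.66-fold, adjusted p = 0.00248 in edgeR). CDH17, the liver-intestine cadherin, which lacks a catenin-binding tail, was at 15.9 to 105 CPM in liver (32.9) and at medians of 4.36 in pituitary gland, 1.32 in muscle and 1.28 in fat. It was 5.12-fold above pituitary gland (log2 2.36, SE 0.48, adjusted p = 7.82e-05), where bull 5 had 37.5 CPM and the other 9 animals at most 11.8.

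PCDH1, a protocadherin found in airway epithelium among other sites, was at 73.9 to 159 CPM in liver (102), above every library of pituitary gland (up to 55.0), muscle (62.2) and fat (54.6). The difference to pituitary gland was 1.48 log2 units (SE 0.21, 2.80-fold, adjusted p = 7.89e-08). PCDH18 was at 26.7 to 49.0 CPM in liver (40.9), 2.32-fold above muscle (adjusted p = 0.00771), and overlapped with fat and muscle. With library sizes alone in place of TMM, the differences of CLDN7, PCDH1 and PCDH18 were 0.57, 0.61 and 0.60 log2 units, and they were not called.

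The summed epithelial markers (9 of 10 measured) followed the same split, at 381 to 1123 CPM in liver, 374 to 879 in pituitary gland, 9.84 to 54.4 in fat and 5.80 to 16.8 in muscle. Of these markers, 7 were higher in liver and pituitary gland than in fat and muscle. Their part in the levels of CDH1, CDH2 and the claudins was not tested.

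**Figure D3:**
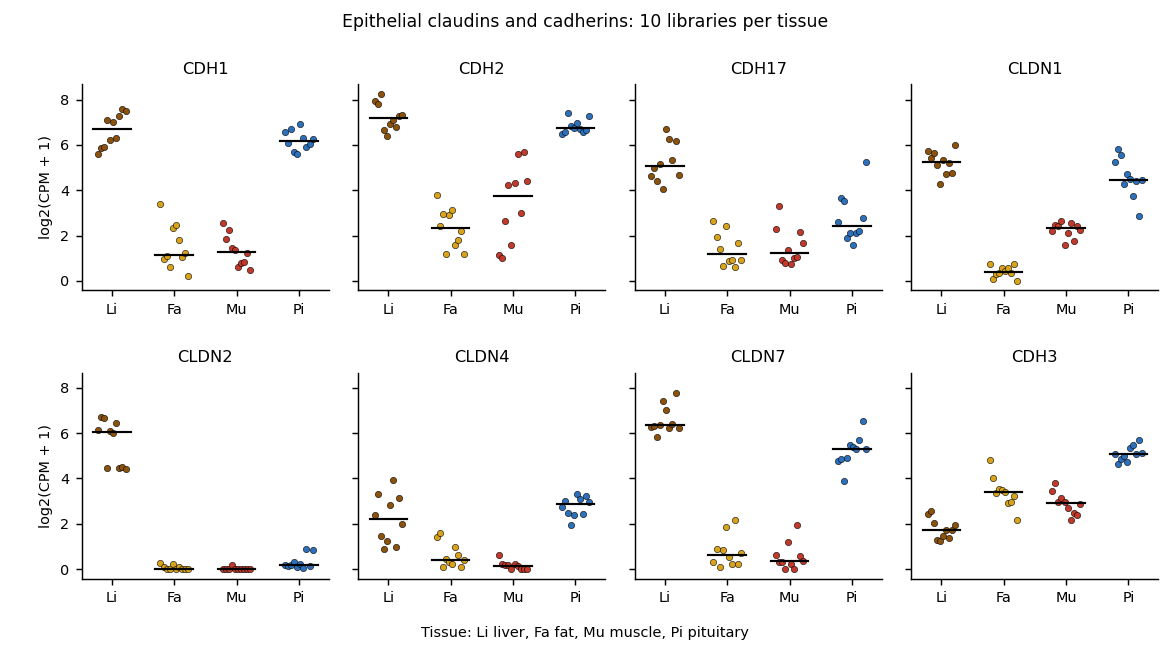
CDH1, CDH2, CDH17, CLDN1, CLDN2, CLDN4, CLDN7 and CDH3 in liver (Li), fat (Fa), muscle (Mu) and pituitary gland (Pi), as log2(CPM + 1), with 1 dot per library and lines at the medians. CDH1 is high in both liver and pituitary gland (47.6 to 192 and 47.7 to 121 CPM), CLDN2 in liver alone (20.6 to 103 CPM), and CDH3 is lowest in liver.

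Of the members known from blood vessels, CDH5, PCDH12 and CLDN5 were lowest in the pituitary gland, and CLDN5 was also called highest in fat. CDH5, VE-cadherin, the adhesion protein of endothelial junctions, was at medians of 152 CPM in fat, 137 in muscle and 106 in liver, and at 9.85 to 19.9 in pituitary gland (14.5). Fat, muscle and liver were 3.43, 3.31 and 2.95 log2 units above pituitary gland (SE 0.26 each, adjusted p = 1.71e-12 or less in edgeR). Among those 3 tissues no difference passed the test, with adjusted p of 0.104 (liver and fat), 0.231 (liver and muscle) and 0.718 (fat and muscle). In fat, bull 5 had 15.8 CPM and cow 2 had 46.3, while the other 8 libraries had 141 to 290. Without these 2 libraries fat was 0.65 log2 units above liver (SE 0.18, adjusted p = 0.00152), and its difference to muscle did not pass (0.39, SE 0.18, adjusted p = 0.0531).

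PCDH12, a protocadherin of endothelial cells also called VE-cadherin-2, was at 8.71 to 22.8 CPM in liver, 10.1 to 23.2 in fat and 3.87 to 17.6 in muscle, and at 0.936 to 3.07 in pituitary gland. The 3 tissues were above pituitary gland by 2.77, 2.82 and 2.10 log2 units (SE 0.24, 0.24 and 0.25), and no pituitary library reached another tissue.

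CLDN5, the endothelial claudin that seals vessels of the brain, had the same order of tissue means as CDH5, with wider steps between fat, muscle and liver. It was at 73.4 to 710 CPM in fat (median 128), 13.8 to 64.9 in muscle (20.2), 2.53 to 12.6 in liver (5.71) and 0.156 to 3.21 in pituitary gland (0.998). Fat was 3.15 log2 units above muscle (SE 0.40, 8.88-fold, adjusted p = 4.26e-08 in edgeR), muscle 2.01 above liver (SE 0.41) and liver 2.59 above pituitary gland (SE 0.45). The CPM ratio of CLDN5 to CDH5 in a library was 0.253 to 45.0 in fat (median 0.738), 0.0957 to 0.375 in muscle (0.156), 0.0181 to 0.0992 in liver (0.0539) and 0.0134 to 0.190 in pituitary gland (0.0573).

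The ratios above that of the other fat libraries came from the fat of cow 2 (12.3) and bull 5 (45.0), where CLDN5 was at 568 and 710 CPM, and the other 8 fat libraries lay between 0.253 and 1.14. Without these 2 libraries CLDN5 in fat was 2.25 log2 units above muscle (SE 0.34, 4.76-fold in place of 8.88-fold), and CLDN5 was still called highest in fat and CDH5 and PCDH12 lowest in pituitary gland. PCDH12 did not set them apart, at 23.2 and 14.9 CPM against 10.1 to 21.8 in the other fat libraries. The gap in CLDN5 and CDH5 between these fat libraries and the rest was seen in the data and not set by a label.

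CDH13, T-cadherin, is anchored by a lipid instead of a membrane-spanning part and binds adiponectin, a hormone of fat cells. Its CPM in fat was 1667, 731, 1007, 620 and 1574 in cows 1 to 5 and 1074, 902, 692, 1222 and 542 in bulls 1 to 5. It was at 248 to 483 CPM in muscle (median 360), 93.9 to 468 in pituitary gland (206) and 1.29 to 11.5 in liver (3.25). All fat libraries lay above all others, with 1.52 log2 units over muscle (SE 0.27, 2.86-fold, adjusted p = 7.29e-06 in edgeR). Liver lay below fat by 7.84 log2 units (SE 0.28), below muscle by 6.32 (SE 0.28) and below pituitary gland by 5.76 (SE 0.28), while muscle and pituitary gland did not differ past the threshold (log2 0.56, SE 0.27, adjusted p = 0.0677).

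Of 10 endothelial markers, 6 (EGFL7, PECAM1, ROBO4, SOX18, TIE1 and VWF) were highest in fat and 1, KDR, in liver. Their summed level was 1903 to 3000 CPM in fat, 717 to 1082 in muscle, 333 to 841 in liver and 192 to 387 in pituitary gland. None was without reads in a tissue, and their part in the levels of CDH5, PCDH12, CLDN5 and CDH13 was not tested.

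**Figure D4:**
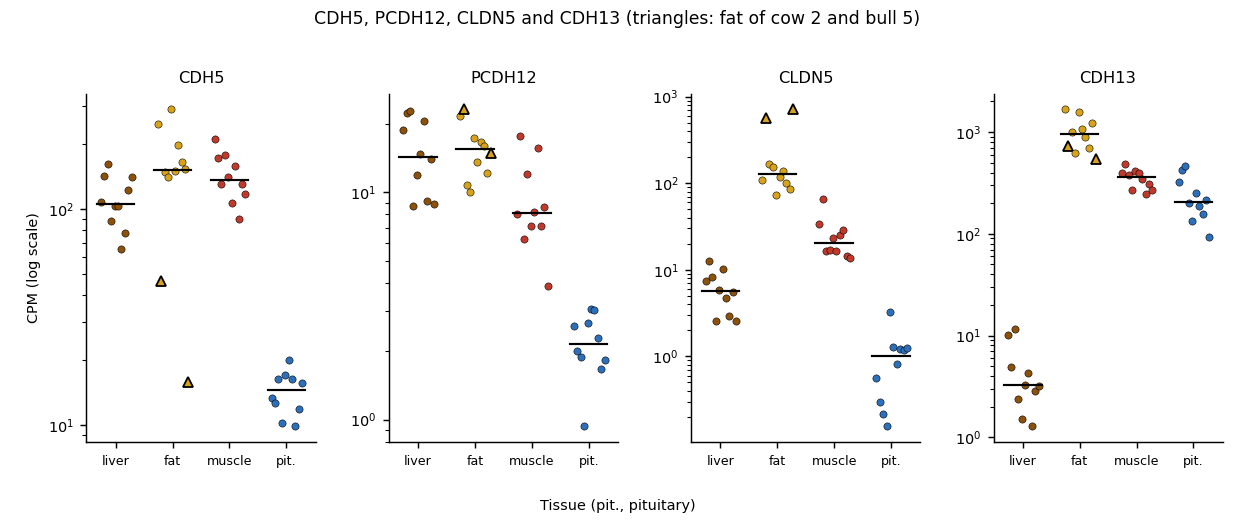
CDH5, PCDH12, CLDN5 and CDH13 in the 4 tissues on a logarithmic CPM axis, with 1 symbol per library, lines at the medians and triangles for the fat of cow 2 and bull 5. In those fat libraries CLDN5 is high (568 and 710 CPM) and CDH5 low (46.3 and 15.8 CPM), and all pituitary libraries lie at the low end for CDH5, where the fat of bull 5 lies among them, and for PCDH12.

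The remaining genes highest in fat were CLDN15, CLDN10 and CDH20. CLDN15, a pore-forming claudin of the gut, was at 15.2 to 130 CPM in fat (37.8), 1.5 to 19.5 in liver (7.04), 1.21 to 3.98 in pituitary gland (1.93) and 0.635 to 6.06 in muscle (1.34). Fat was 2.31 log2 units above liver (SE 0.38, 4.97-fold, adjusted p = 2.90e-06 in edgeR), with fat above the other tissues in all 10 animals. CLDN10, another pore-forming claudin, was at 0.155 to 40.7 CPM in fat (17.6) and at medians of 0.897 in pituitary gland, 0.283 in liver and 0.270 in muscle.

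The low end of CLDN10 in fat was bull 5, at 0.155 CPM, and the next was bull 3, at 2.01. Fat was 18.5-fold above the next tissue (log2 4.21, SE 0.60, adjusted p = 2.65e-07), and the call held without the fat of cow 2 and bull 5. CDH20, a type II cadherin, was at 0.927 to 7.08 CPM in fat (2.29), 4.38-fold above the next tissue (log2 2.13, SE 0.47, adjusted p = 0.000214), and highest in fat in 9 of the 10 animals. Mesothelial markers, 5 of 10 measured, were at 7.54 to 34.0 CPM in sum in fat and 14.5 to 32.5 in pituitary gland, and 0 of the 5 were highest in fat.

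Muscle had 1 gene of its own, CDH15, or M-cadherin, the cadherin of satellite cells and myoblasts. It was at 15.0, 40.1, 19.7, 62.2 and 35.0 CPM in cows 1 to 5 and 37.5, 34.2, 56.3, 19.4 and 41.5 in bulls 1 to 5. It was at 1.18 to 10.4 CPM in fat (4.99), and at most 0.468 in pituitary gland and 0.390 in liver, so that muscle overlapped with none of them. Muscle was 2.77 log2 units above fat (SE 0.32, 6.82-fold, adjusted p = 2.17e-09 in edgeR). Of 7 satellite cell and myoblast markers measured, 4 (MYF5, MYF6, MYOD1 and MYOG) were highest in muscle and 1 (VCAM1) in fat. PAX7 was not measured. The summed list was at 418 to 1963 CPM in muscle and 17.8 to 200 in fat. The part of these markers in the level of CDH15 was not tested.

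CDH11 and PCDH7 were present in all tissues. CDH11, or OB-cadherin, which mesenchymal cells and bone-forming cells express, had medians of 23.8 CPM in fat, 19.9 in pituitary gland, 14.0 in muscle and 11.3 in liver. Liver was lower than each of the others, by log2 differences of 0.72 to 1.07, and no pair of the other 3 passed the test. Without the fat of cow 2 and bull 5 the difference of muscle to liver did not pass (0.63, SE 0.29, adjusted p = 0.0558). PCDH7 had medians of 80.9 CPM in fat, 42.0 in liver, 36.4 in pituitary gland and 24.2 in muscle. Fat was 0.80 log2 units above liver (SE 0.26, adjusted p = 0.00665), liver and pituitary gland did not differ past the threshold (0.14, SE 0.26, adjusted p = 0.663), and muscle was the lowest. CLDN12 was at medians of 6.10, 5.61, 3.45 and 1.92 CPM in liver, pituitary gland, fat and muscle, with no difference past the threshold between liver and pituitary gland (adjusted p = 0.727).

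CDH23, a tip-link cadherin of inner ear hair cells, was at medians of 14.1 CPM in pituitary gland, 18.5 in muscle and 18.6 in fat, which did not differ past the threshold, and at 2.01 in liver. CDH22, also called pituitary and brain cadherin, was at medians of 3.54 CPM in pituitary gland, 1.45 in muscle, 0.0602 in fat and 0 in liver, with 2 reads in all liver libraries. Pituitary gland and muscle differed by 0.45 log2 units (SE 0.62, adjusted p = 0.591). CDH16, CDH19, CLDN18 and CLDN19 stayed under 1 CPM in the median of every tissue, and CLDN18, known from stomach and lung, had 1 read in fat and 1 in pituitary gland.

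Several members lie next to each other in the genome. In the gene order of RefSeq (assembly ARS-UCD2.0, matched by symbol for all 49), each member was paired with the next member only. Of these successive pairs, 13 had at most 1 protein-coding gene between them, and 6 of the 13 (46.2%) were highest in the same tissue. Members with another member between them, such as CDH10 and CDH18, were not counted as a pair. Of all 1176 pairs of members 21.3% were so, and of 14466 close pairs of tested genes 6.24%. Those 14466 pairs outnumber the 13148 genes tested, so they were not limited to successive genes, and their share is not directly comparable with that of the 13. The 6 were all pituitary pairs. CDH6, CDH9, CDH10, CDH12 and CDH18 form 1 run, with 1 other gene between CDH9 and CDH10, and PCDHGA2, PCDHGB4 and PCDHGA8 form another. Other neighbours differed. CDH8, CDH11 and CDH5 follow each other and were highest in pituitary gland, without a pattern, and lowest in pituitary gland, and CDH3 and CDH1 differed in that CDH3 was lowest in liver. These runs were looked at after the values had been seen.

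Other genes of the junctions were taken from lists of membrane and cytoplasmic proteins. Of 24 tight junction partners, 18 were measured, and 9 of them (CGN, CRB3, CXADR, ILDR1, ILDR2, LSR, MARVELD3, PARD6B and TJP3) were higher in liver and pituitary gland than in fat and muscle. Their median smallest log2 difference for this pattern was 1.0, against -1.13 over all genes and 0.08 over the 15 claudins. TJP3, or ZO-3, binds the tails of claudins from inside the cell. Of these 18, 5 were highest in liver, 2 in fat (ESAM and JAM2, of endothelial junctions), 2 in pituitary gland and 0 in muscle. Of 11 measured desmosome genes, 7 were higher in liver and pituitary gland, among them DSP, the desmosomal plaque protein, and the desmosomal cadherins DSC2, DSG1, DSG2 and DSG3.

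Of 14 measured catenins and adherens junction partners, none was called higher in both liver and pituitary gland. Of these, 3 were highest in pituitary gland (CTNNA2, PVRL1 and PVRL4), 2 in fat (ARVCF and CTNNA1), 2 in muscle (CTNNA3 and VCL) and 1 in liver (PVRL2). Among 14 measured genes of atypical cadherins and claudin-like proteins outside the rule, 4 were highest in pituitary gland, CELSR3, CLSTN3, FAT2 and FAT3.

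Sex was compared within each tissue (M1), over all tissues with tissue in the model (M2), and as an interaction of sex and tissue, with edgeR's likelihood ratio test. In liver 1 member passed, where 0.175% of all genes did, in pituitary gland 1 (0.745%), in muscle 1 (0.517%) and in fat 0 (0.114%). In M2 1 member passed, against 1.69% of all genes, and in the interaction 1, against 0.335%. With edgeR's quasi-likelihood test 0 members passed in any of the 6 tests, and of all 13148 genes 1 passed in liver (0.00761%), 12 in pituitary gland (0.0913%), 7 in muscle (0.0532%), 3 in fat (0.0228%), 77 in M2 (0.586%) and 0 in the interaction. At an unadjusted p under 0.05 the likelihood ratio test had 13 members in pituitary gland, 7 in muscle, 4 in fat, 4 in liver, 8 in M2 and 10 in the interaction, and the quasi-likelihood test 11, 7, 4, 3, 7 and 7. Over all genes the unadjusted shares of the likelihood ratio test were 9.27%, 11%, 6.88%, 7.45%, 16.7% and 8.58%, and those of the quasi-likelihood test 8.62%, 9.94%, 5.86%, 6.64%, 15.8% and 7.01%. The median log2 difference of bulls over cows over the members was 0.02 in pituitary gland, -0.31 in muscle, -0.22 in fat and -0.29 in liver, against 0.00, -0.04, -0.06 and 0.00 over all genes.

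In liver the gene was CLDN10. Cows 1 to 5 had 2.02, 6.23, 1.54, 0.281 and 1.23 CPM, from 25, 61, 12, 2 and 9 reads. Bulls 1 to 5 had 0.286, 0, 0, 0.234 and 0.0944 CPM, from 2, 0, 0, 3 and 1 reads. Of the cows, only cow 4 fell within the range of the bulls, and the reads of the bulls are at or under the floor of 3. Levels were lower in bulls by a log2 difference of -3.91 (SE 0.90, adjusted p = 0.00462 in edgeR's likelihood ratio test, 0.314 in the quasi-likelihood test, 0.0130 in DESeq2).

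Without the liver library labelled bull 3 the difference was -3.69 (adjusted p = 0.0118), and all 10 fits that left out an animal passed. CLDN10 was lower in bulls in M2 as well, by -1.60 (SE 0.45, adjusted p = 0.0432), but not past the threshold without the bull 3 liver (0.0714), with limma's voom and the animal as a block (0.322), or in 8 of the 10 fits that left out an animal. In fat, muscle and pituitary gland the differences were -0.95, -1.87 and -0.32, none past the threshold, and the interaction did not pass for CLDN10 (adjusted p = 0.399).

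The next genes in liver were CDH17 and CDH1, both with higher values in bulls. CDH17 was at 23.9, 30.5, 20.1, 35.2 and 15.9 CPM in cows and 105, 75.9, 39.5, 72.0 and 24.6 in bulls (log2 1.37, SE 0.36, adjusted p = 0.0991). Without the library labelled bull 3 its adjusted p was 0.0267. CDH1 was at 47.6, 56.5, 59.2, 138 and 73.0 CPM in cows and 129, 78.2, 155, 192 and 179 in bulls (log2 0.98, SE 0.34, adjusted p = 0.307, and log2 0.95 with an adjusted p of 0.417 without the library labelled bull 3). Without cow 4 both passed edgeR's likelihood ratio test, CDH17 at log2 1.53 (adjusted p = 0.0167) and CDH1 at 1.33 (0.00695). CDH17 passed without bull 5 too (0.00321). The remaining fits that left out an animal called neither gene. Epithelial markers in liver were at 381 to 830 CPM in sum in cows and 537 to 1123 in bulls, and their part was not tested.

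In muscle CDH1 passed the test in the opposite direction. Cows had 4.83, 2.59, 3.81, 1.77 and 1.58 CPM and bulls 0.521, 0.735, 0.793, 1.33 and 0.415, so that every cow was above every bull. This separation occurred for 2 members, CDH1 and CDH3, and for 0.92% of all genes. Bulls were lower by a log2 difference of -1.95 (SE 0.54, adjusted p = 0.0491 in edgeR's likelihood ratio test, 0.296 in the quasi-likelihood test, 0.0477 in DESeq2), and 3 of the 10 fits that left out an animal passed. The epithelial markers in muscle summed to 7.10 to 16.8 CPM in cows and 5.80 to 11.8 in bulls, with KRT7 and ESRP1 at 0 reads in bulls, and their part was not tested. CDH3 was at 9.93, 13.1, 6.85, 7.68 and 6.71 CPM in cows and 5.56, 3.46, 4.5, 4.31 and 6.36 in bulls (log2 -0.88, SE 0.34, adjusted p = 0.264).

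CDH2 in muscle was at 1.24, 1.04, 5.20, 17.7 and 1.97 CPM in cows and 18.9, 48.2, 6.88, 50.9 and 20.2 in bulls. Cow 4 alone overlapped with the bulls. The difference in muscle was 2.42 (SE 0.69, adjusted p = 0.0842), while in liver it was -0.45 (SE 0.34), in fat -0.86 (SE 0.61) and in pituitary gland 0.02 (SE 0.22). The interaction of sex and tissue passed for CDH2 (adjusted p = 0.0409 in edgeR's likelihood ratio test), but not in the quasi-likelihood test (0.283), in DESeq2 (0.0509) or without the liver library labelled bull 3 (0.0518). It did pass with limma's voom and the animal as a block, with RLE factors, with library sizes alone and with filterByExpr. Of the 10 fits that left out an animal, 3 passed, and without cow 4 the muscle difference passed too. Satellite cell and myoblast markers in muscle summed to 418 to 1627 CPM in cows and 634 to 1963 in bulls, and their part was not tested.

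CDH22 was the pituitary gene, with higher levels in bulls. Cows had 3.03, 1.41, 2.10, 0.936 and 3.14 CPM and bulls 7.68, 3.93, 4.89, 4.76 and 8.54. Every bull was above every cow, which held for 1 member and for 0.852% of all genes. The log2 difference was 1.48 (SE 0.37, adjusted p = 0.0169 in edgeR's likelihood ratio test, 0.206 in the quasi-likelihood test, 0.00873 in DESeq2), and 6 of the 10 fits that left out an animal passed. With library sizes alone its adjusted p was 0.108. Neuron and glia markers in pituitary gland summed to 729 to 1020 CPM in cows and 881 to 1192 in bulls, and their part was not tested. In muscle CDH22 was at 4.55, 14.2, 4.57, 0.148 and 1.84 CPM in cows and 0, 1.05, 0, 2.32 and 0.415 in bulls (log2 -2.69, SE 0.94, adjusted p = 0.204).

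Other members of the pituitary gland had smaller differences that did not pass. CLDN1 was at 37.4, 55.4, 46.3, 18.3 and 25.1 CPM in cows and 21.8, 12.5, 20.5, 6.26 and 20.7 in bulls (log2 -1.15, SE 0.35, adjusted p = 0.0999). CDH18 was at 62.2, 85.2, 80.2, 40.1 and 47.8 CPM in cows and 49.2, 30.0, 41.1, 39.6 and 36.1 in bulls (log2 -0.68, SE 0.23, adjusted p = 0.166). For CLDN1 every cow but cow 4 was above all bulls, and for CDH18 cows 1 to 3 were above all bulls while cows 4 and 5 were among them.

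In fat the member nearest to the threshold was CLDN11, at 1.34, 2.01, 2.70, 1.45 and 1.26 CPM in cows and 3.08, 1.99, 3.30, 9.0 and 12.6 in bulls (log2 1.76, SE 0.56, adjusted p = 0.366). Without the fat of cow 2 and bull 5 it was 1.36 (adjusted p = 0.531). CDH3 (log2 -1.06, adjusted p = 0.614) and CDH17 (-1.42, adjusted p = 0.621) had higher means in cows. Over all tissues, CDH13 (log2 -0.60, SE 0.19, adjusted p = 0.0706) and PCDHGA2 (-0.62, SE 0.22, adjusted p = 0.116) came after CLDN10 in M2, with lower levels in bulls, and did not pass. PCDHGA2 in pituitary gland was at 17.9, 19.97, 31.02, 9.28 and 5.06 CPM in cows and at 7.89 to 10.6 in bulls.

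**Figure D5:**
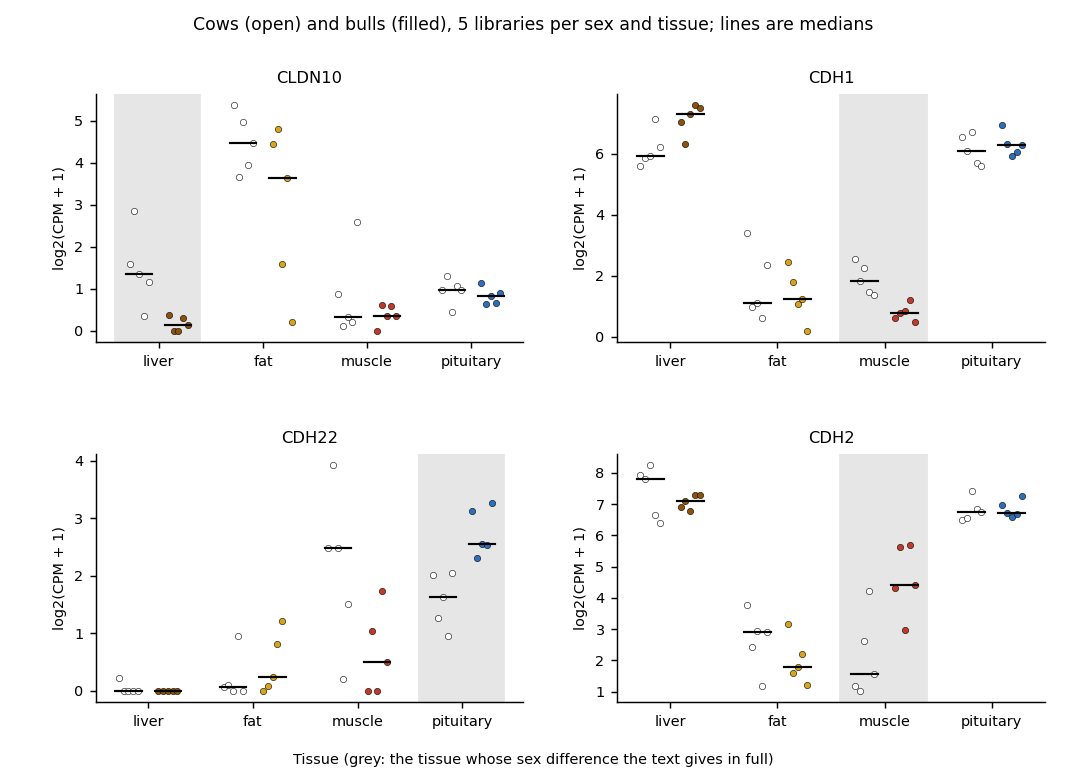
CLDN10, CDH1, CDH22 and CDH2 by tissue as log2(CPM + 1), with cows as open and bulls as filled symbols, 1 symbol per library and lines at the medians of 5 libraries. CLDN10 in liver and CDH1 in muscle are lower in bulls, CDH22 in pituitary gland is higher in bulls, and CDH2 in muscle is at 1.04 to 17.7 CPM in cows and 6.88 to 50.9 in bulls.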

How the data were processed

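RNA-seq libraries of 4 tissues from 10 cattle were analysed, 40 in all. According to the study's methods the authors made paired-end libraries from poly-A RNA, trimmed reads with Trimmomatic, aligned them to bosTau7 with TopHat2 and Bowtie2, and counted uniquely aligned reads on genes with HTSeq. The authors deposited 1 table of raw read counts per library, neither normalized nor filtered. The counting mode and the use of strand are not given in the sources used here, so overlapping genes and genes with near-identical copies, such as the clustered protocadherins, have uncertain counts. Reads outside genes made up 33.2% to 54.0% of those counted on genes, outside genes or as ambiguous between genes. An entry without a gene name held 0.114% to 2.69% of the reads on genes, itself included, and was left out.

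Groups came from the submitters' labels. A gene was tested if any library had a read on it. Tissue contrasts (6) and sex (M1, M2, interaction) were fitted in edgeR 4.0.16 (R 4.3.3) with TMM factors, a prior count of 0.125 for log2 differences and Benjamini-Hochberg adjustment over 13148 genes. The interval given is 95% and rests on the fitted standard error, and the floor of 3 reads covers counting error only. DESeq2 1.42.0 and limma 3.58.1 served as alternatives. The scripts were tested on simulated data. Figures were drawn with matplotlib 3.10.9. The genes, lists and tests were chosen with earlier results of these data known. Genes named by rule (27) were up to 8 per tissue with at least 1 CPM, 6 without a call, and 3 per sex test with all that passed. Other genes were named to account for all members and were chosen after their values were seen.

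The 4 tissues of an animal are paired by design. The deviations of an animal's tissues from their group means had median correlations of 0.0285 to 0.324 by tissue pair, the lowest single value being -0.450. M2 takes these libraries as independent. Cow 1 and bull 1 share a number only. Nothing in the labels gives a date or batch.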

Additional observations from a re-analysis of the deposited data

Results flagged for a closer look

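In 72 groups of 5 libraries, over the 27 genes named by rule, 9 libraries lay so far from the others of their group that their gap exceeded 0.71 of the group's range. For normally distributed values chance alone gives this in about 1 in 20 groups. The check used CPM without a log transformation, so that rate may not hold here. In fat, CLDN5 was at 568.3 CPM in cow 2 (other cows 73.4 to 169) and at 710.0 CPM in bull 5 (other bulls 85.0 to 137), and CDH5 was at 15.77 CPM in bull 5 (other bulls 151 to 198). CDH20 was at 6.70 CPM in the fat of bull 2 (0.927 to 1.92 in the other bulls), and CDH17 at 2.188 CPM in the fat of bull 4 (0.549 to 0.927). In liver, CDH1 was at 137.6 CPM in cow 4 (47.6 to 73.0 in the other cows), and CLDN7 at 167.9 CPM in cow 5 (56.5 to 80.7). CDH2 was at 17.73 CPM in the muscle of cow 4 (1.04 to 5.20 in the other cows), and PCDHGA2 at 10.59 CPM in the pituitary gland of bull 1 (7.89 to 8.55 in the other bulls).

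The difference between bulls and cows in CDH2 differed between tissues, with an adjusted p of 0.04085 for the interaction in edgeR's likelihood ratio test. The log2 difference was 2.42 in muscle and -0.45, -0.86 and 0.02 in liver, fat and pituitary gland.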

How the results depend on the processing

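The genes highest in fat (5), highest in muscle (1) and lowest in pituitary gland (4) stayed within 1.5 times of these counts under every alternative. With a log2 difference of at least 2, 2 members were highest in liver, 14 in pituitary gland, 6 higher in liver and pituitary gland and 4 lowest in liver, instead of 5, 22, 10 and 10. With library sizes alone 2 were highest in liver. That scaling moves log2 differences of liver over pituitary gland by -0.84, of liver over fat by -0.72, of fat over muscle by 0.81 and of muscle over pituitary gland by -0.94. With the animal as a replicate block 21 members were highest in pituitary gland and 9 higher in liver and pituitary gland, and the other counts differed by at most 1. Leaving out 1 animal gave 5 to 5 members in liver, 5 to 5 in fat, 1 to 1 in muscle, 19 to 22 in pituitary gland, 8 to 10 higher in liver and pituitary gland, 9 to 11 lowest in liver and 4 to 4 lowest in pituitary gland.

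For sex, the quasi-likelihood test called 0 members in place of 1 in liver, muscle, pituitary gland, M2 and the interaction. The count also fell to 0 in liver with filterByExpr, which does not test CLDN10 there, in muscle with RLE factors, and in pituitary gland with library sizes alone. It fell to 0 in M2 with voom and the animal as a replicate block and without the liver library labelled bull 3, and in the interaction with DESeq2 and without that library. It rose to 4 in M2 with library sizes alone (CDH13, CDH3, CLDN10 and PCDHGA2), which shift the median of all genes to -0.18, and to 2 in the interaction (CDH1 and CDH2) without the fat of cow 2 and bull 5, an alternative added after seeing the data. In muscle, library sizes alone called CDH2 in place of CDH1. Leaving out 1 animal gave 1 to 3 members in liver, 0 to 0 in fat, 0 to 5 in muscle, 0 to 5 in pituitary gland, 0 to 4 in M2 and 0 to 3 in the interaction. The highest counts in liver, muscle, M2 and the interaction came without cow 4, and that in pituitary gland without cow 5. The cause was not tested. Of the values of single named genes, 422 of 425 between tissues and 234 of 290 between sexes kept their side of the threshold, 38 of the latter lost it and 18 gained it, and none changed direction. Genes with few reads, such as CLDN10 in liver, are limited by depth.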
